A study of Mus musculus with 4 samples.

Results

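The genes described here are 50 interferon-stimulated genes and their regulators in cultured mouse splenic B cells. They fall into 36 targets of type I interferon, 7 immunity-related GTPases (IRG GTPases) and 7 transcription factors (6 interferon regulatory factors, IRFs, and Stat2). They were taken by symbol from a fixed list without guanylate-binding protein and Oas genes, and all 50 were found among the 30041 genes for which an RNA-seq score was deposited. B cells of control mice (Nfkbiz fl/Δ) and of cKO mice (Nfkbiz fl/Δ Mb1 cre/+) were compared after 72 h in LPS, a bacterial cell wall component that activates B cells through Toll-like receptor 4. Each genotype had 2 samples, called 1 and 2, and the strain was labelled C57BL/6. Both groups carry a deleted Nfkbiz allele (Δ), so the control cells have a single floxed copy. Cre is driven by the B cell gene Cd79a and removes that copy in cKO B cells. The LPS dose was 20 μg/ml in the published methods and 20 mg/ml in the labels. Whether the samples came from separate mice is not stated in the sources used here, so the p-values measure the spread between these samples, which may be technical.

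Interferons are secreted signals of infection. Type I interferons bind the Ifnar1 and Ifnar2 receptor and activate the kinases Jak1 and Tyk2, after which a complex with Stat2 and Irf9 binds the interferon-stimulated response element (ISRE) in target promoters. Interferon γ acts through Ifngr1, Ifngr2, Jak1 and Jak2 and the GAS element, and it is the main inducer of the IRG GTPases, which act on the vacuoles of intracellular pathogens. LPS can induce the same targets, through interferon made after Toll-like receptor signalling and through IRFs.

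The targeted gene checked the labels. Nfkbiz, which encodes the nuclear protein IκB-ζ, scored 0.0241 in control 1, 0.0226 in control 2, 0.0127 in cKO 1 and 0.0116 in cKO 2. The log2 fold change was -0.94 with a standard error (SE) of 0.0956, and it passed the test (adjusted p = 0.0282, limma). Without cKO 1 or cKO 2 the limma adjusted p was 0.130 or 0.0885. B cell markers were high in all samples, with summed scores of the 8 listed genes between 2.76 and 3.14. Cd79a, the gene that carries the Cre, was the marker called lower among them (limma adjusted p = 0.0294). The libraries were alike in size, with summed scores between 604.2 and 637.6. A score appears to be normalized for exon length and library size, which is an inference from the values, since its unit is not stated.

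The ISRE is shown first, because it is the sequence that the type I interferon pathway reads. A promoter window of 250 bases before to 50 bases after the transcription start was at hand from RefSeq (GRCm38.p6) for 39 of the 50 genes, in 48 windows. The ISRE core searched for was GAAANNGAAA on both strands, and 18 of the 48 member windows held it (37.5%), against 3.44% of the 32851 windows of all genes. The GAS core TTCNNNGAA, searched on both strands, was in 15 of the 48 (31.2%), against 8.30% of all windows. An ISRE and a GAS match overlapped in the windows of Bst2 and Ifitm3. By class, an ISRE match was found in 5 of 6 IRG GTPases, 11 of 26 type I targets and 2 of 7 transcription factors with a window. The sites below, with 10 bases on each side, were chosen to show the IFIT and IRG families, Isg15 and Ifitm2. The ISRE core is in capitals, and each line reads along the gene's own strand.
Ifit1: ccagtctcagTTTCAGTTTCtcactgctga
Ifit3: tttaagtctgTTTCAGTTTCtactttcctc
Isg15: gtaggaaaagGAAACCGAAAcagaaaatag
Irgm1: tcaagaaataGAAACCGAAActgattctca
Igtp: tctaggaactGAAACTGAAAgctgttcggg
Irgm2: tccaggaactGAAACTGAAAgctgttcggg
Tgtp1: tccaggaatcGAAACTGAAAcctacctgac
Tgtp2: tccaggaatcGAAACCGAAAcctactctga
Ifitm2: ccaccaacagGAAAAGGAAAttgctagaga

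These stretches lie at chr19:34640794-34640823 (Ifit1, plus strand), chr19:34583397-34583426 (Ifit3, plus), chr4:156200871-156200900 (Isg15, minus), chr11:48871425-48871454 (Irgm1, minus), chr11:58199512-58199541 (Igtp, plus), chr11:58214903-58214932 (Irgm2, plus), chr11:48992304-48992333 (Tgtp1, minus), chr11:49064263-49064292 (Tgtp2, minus) and chr7:140955988-140956017 (Ifitm2, minus). Their capitals begin 122 to 24 bases before the start, and the cores of Igtp and Irgm2 share the same letters and almost the same flanks. In Isg15 3 cores overlapped each other, and in Ifit1 and Ifit3 a pair of cores stood close together. A match is a description of these letters and was not tested as a site.

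**Figure D1:**
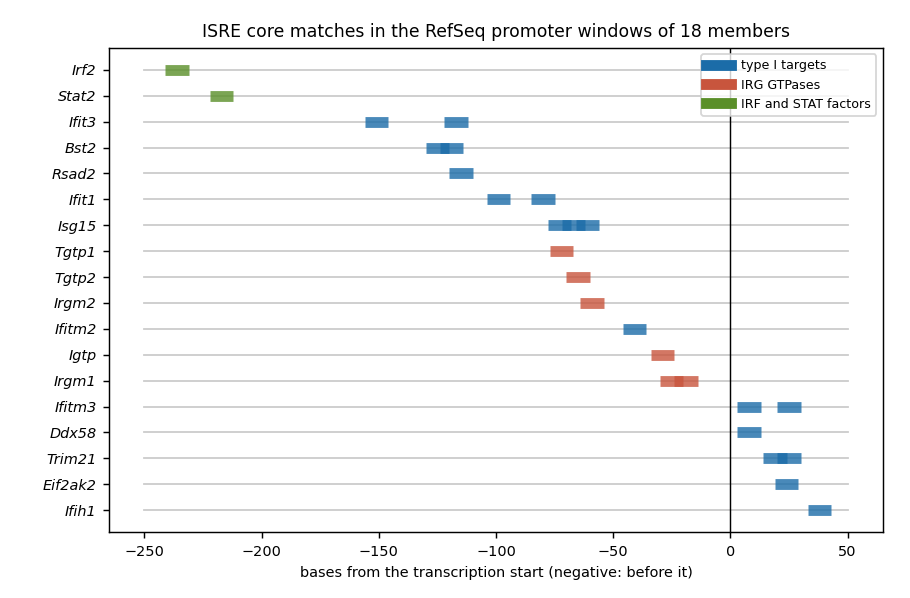
Position of each match to the ISRE core in the RefSeq promoter windows (GRCm38.p6) of the 18 members that hold it, in bases from the transcription start, coloured by class. Each grey line is a window from 250 bases before to 50 bases after the start. The IRG GTPases have theirs shortly before the start, and 5 type I targets have theirs after it.

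The windows of Ifi44 and Samd9l, the members that were lowest in cKO B cells relative to control or lower at the adjusted threshold, held neither core. The 120 bases just before their starts are given for comparison, from chr3:151749911-151750030 (Ifi44, minus strand) and chr6:3399572-3399691 (Samd9l, minus strand) of GRCm38.p6. They are in lower case throughout because no core was found in them, which says only that these letters are absent there. In the Ifi44 stretch tttc recurs within tttcagttttcgtttc, at spacings other than that of the core. Such near matches were not searched for.
Ifi44: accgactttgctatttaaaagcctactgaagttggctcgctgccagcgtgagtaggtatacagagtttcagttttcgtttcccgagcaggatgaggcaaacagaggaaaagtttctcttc
Samd9l: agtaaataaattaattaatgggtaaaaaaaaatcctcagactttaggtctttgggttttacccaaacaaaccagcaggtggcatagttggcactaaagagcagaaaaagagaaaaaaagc

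The comparison of cKO with control B cells asks whether these genes depend on IκB-ζ after LPS. For most of them no difference passed the test. The minimum score for testing, 0.005 in any sample, was reached by 44 of the 50 members and by 9727 genes in all. Of the 44, 1 was called lower (Samd9l) and 1 higher (Ifitm2) at an adjusted p under 0.05 by limma on the scale log2(score + 0.0001), where p-values were adjusted over the 9727 genes by the Benjamini-Hochberg method. Among all genes tested, 1.25% were called lower and 0.812% higher. The median log2 fold change of the 44 was -0.11, against -0.01 over all genes, and 29 were below and 15 above 0. Ifi44 alone was below 0.5-fold by the ratio of geometric means, as were 0.864% of all genes, and no member with a sufficient score was above 2-fold, as 1.15% of all genes were. Ifit2, Ifit3, Mx1, Usp18 and Ifi44 passed the minimum score through control samples alone.

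**Figure D2:**
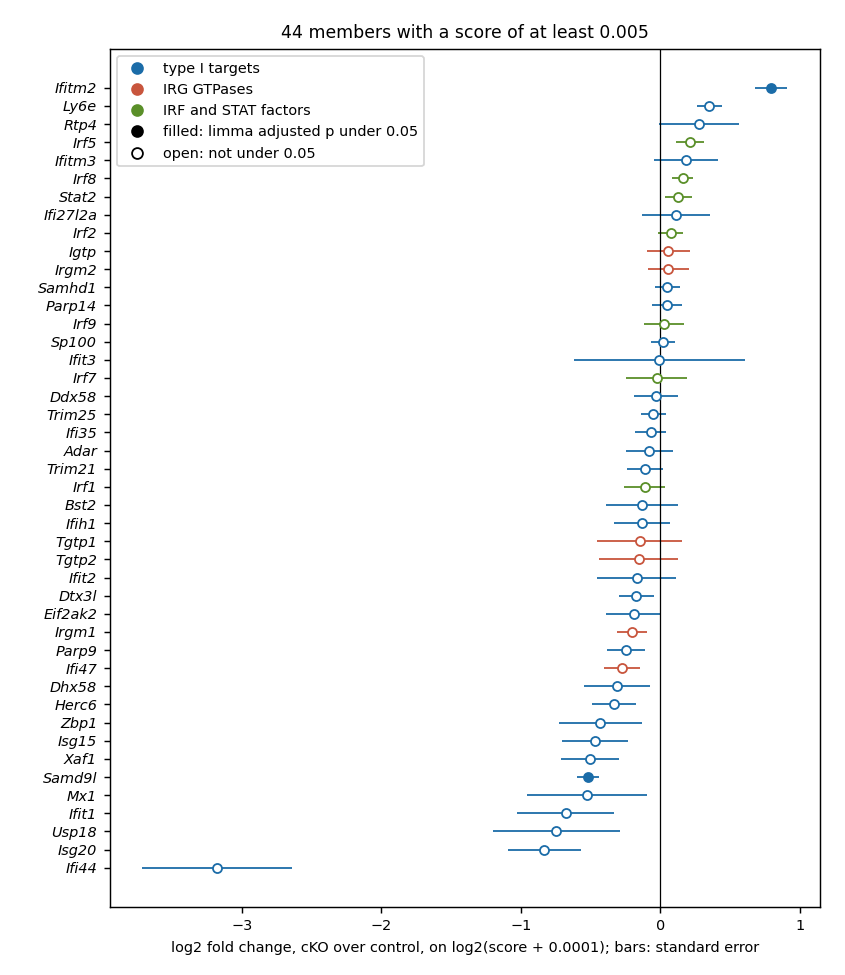
Log2 fold change of cKO over control for the 44 members with a score of at least 0.005, on log2(score + 0.0001), with standard errors from limma (2 samples per group). Points are coloured by class and filled where the adjusted p is under 0.05, which holds for Samd9l (-0.52) and Ifitm2 (0.79), and Ifi44 lies farthest from 0 at -3.18.

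The members farthest from 0 were type I targets. Ifi44, an interferon-induced protein of the cytoplasm, had scores of 0.0115 in control 1, 0.00435 in control 2, 0.00075 in cKO 1 and 0.00064 in cKO 2. Both cKO scores lay far below both control scores, although the controls differed from each other as well. By the inferred step these scores stand for about 69 to 1254 reads. Its log2 fold change was -3.18 (SE 0.536), with a limma adjusted p of 0.0519 that missed the threshold. Without control 2 it was -3.87 and passed (limma adjusted p = 0.00478), and without control 1 it was -2.49 and missed (0.103), as it did without cKO 1 (0.197) and without cKO 2 (0.119).

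Samd9l, a restriction factor of poxviruses and a brake on growth of blood cells, was the gene called lower. Control 1 and control 2 scored 0.0534 and 0.0535, and cKO 1 and cKO 2 scored 0.0370 and 0.0377, about 3583 to 5318 reads. The samples of each group nearly coincided and the groups did not overlap. The log2 fold change was -0.52 (SE 0.0785, with an adjusted p of 0.0428 from limma). It kept its size without control 1 (-0.52) but the limma adjusted p was then 0.0528, and it was 0.254 without cKO 1 and 0.146 without cKO 2.

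Isg20, an RNA exonuclease, had scores of 0.0166 in control 1, 0.00995 in control 2, 0.00627 in cKO 1 and 0.00820 in cKO 2, all cKO values below all control values. Its log2 fold change of -0.83 did not pass (SE 0.261, with an adjusted p of 0.158 from limma). It was -0.47 without control 1 (limma adjusted p = 0.327) and -1.20 without control 2, where it passed (0.0169).

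Ifitm2, whose protein hinders the entry of enveloped viruses, was the gene called higher. Control 1 and control 2 scored 0.0106 and 0.0128 (mean 0.0117 ± 0.00158, SD, n = 2), and cKO 1 and cKO 2 scored 0.0205 and 0.0200 (mean 0.0202 ± 0.000304, SD, n = 2). These stand for about 123 to 265 reads. Both cKO samples stood clear of both controls, and the log2 fold change was 0.79 (SE 0.117, with an adjusted p of 0.0406 from limma). Without cKO 1 or cKO 2 the limma adjusted p rose to 0.226 or 0.126. Its neighbours on chromosome 7 were Ifitm3 and Ifitm1. Ifitm3 had scores of 0.00618, 0.0041, 0.00616 and 0.00534 (control 1, control 2, cKO 1, cKO 2, the order used from here on), so that its cKO scores lay between those of the controls. Ifitm1 had 0.0002, 0.00049, 0.00064 and 0.00083, with both cKO samples above both controls as in Ifitm2. This was at about 4 to 16 reads by the inferred step, below the minimum score. Tested with no filter, the log2 fold change of Ifitm1 was 0.98 (SE 0.424, limma adjusted p = 0.388). The 3 genes lie between 148140736 and 148196669 on chromosome 7 of NCBIM37 (mm9), and the longest coding sequences of Ifitm2 and Ifitm3 are 76.3% identical.

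Of the other membrane proteins, Ly6e, a surface protein linked to glycosylphosphatidylinositol, had the highest scores of all members, 0.577, 0.663, 0.797 and 0.783. Both cKO scores were above both control scores, with a log2 fold change of 0.35 (SE 0.0915, with an adjusted p of 0.120 from limma). Bst2, or tetherin, which holds budding virus at the cell surface, had 0.0455, 0.0255, 0.0322 and 0.0301, with both cKO values inside the span of the controls.

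The IFIT proteins bind viral RNA, and their genes lie side by side on chromosome 19 (NCBIM37, 34625184 to 34724499). Ifit1 had scores of 0.0117, 0.00558, 0.00448 and 0.0056, a log2 fold change of -0.68 (SE 0.346, with an adjusted p of 0.306 from limma). Ifit2 had 0.00534, 0.00332, 0.00345 and 0.00405, and Ifit3 had 0.00864, 0.00212, 0.00382 and 0.0048. In all 3 genes control 1 was highest by far and control 2 lay close to, or below, the cKO samples. Without control 2, the log2 fold change of Ifit1 was -1.21 (limma adjusted p = 0.0179), and without control 1 it was -0.15 (0.794).

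The Mx proteins are dynamin-like GTPases against viruses, encoded together on chromosome 16 (97668642 to 97782506). Mx1 had scores of 0.00542, 0.00245, 0.00217 and 0.00289, where control 1 again stood apart. Mx2 had 0.00354, 0.00365, 0.00243 and 0.00277, with both cKO samples below both controls, but it did not reach the minimum score. Tested with no filter, its log2 fold change was -0.455 (SE 0.143, limma adjusted p = 0.302).

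Isg15 is a ubiquitin-like protein, Herc6 its ligase in the mouse, Usp18 the protease that removes it, and Trim25 a ligase that acts with the sensor Ddx58 (RIG-I). Isg15 had scores of 0.0433, 0.0280, 0.0215 and 0.0294, and the groups overlapped. Usp18 had 0.0112, 0.00405, 0.0043 and 0.00369, a log2 fold change of -0.75 (SE 0.453, with an adjusted p of 0.377 from limma). Only control 1 stood apart: against control 2 the log2 fold change was -0.02, and against control 1 it was -1.47 (limma adjusted p = 0.00963). Herc6 had 0.0129, 0.00964, 0.00857 and 0.00907, all cKO below all control, and Trim25 stayed between 0.0358 and 0.0395 in the 4 samples.

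The sensors of foreign nucleic acid and their relatives gave no call in 6 genes, and none had an unadjusted p under 0.05. Zbp1, a sensor of Z-form nucleic acid, had 0.0200, 0.0102, 0.0104 and 0.0108. Dhx58 (LGP2), which tunes RIG-I-like receptors, had 0.0199, 0.0117, 0.0121 and 0.0125, and the kinase Eif2ak2 (PKR), which halts translation, had 0.0244, 0.0159, 0.0170 and 0.0175. These genes shared 1 shape, a high control 1 and 3 like values. Ddx58 ranged from 0.0144 to 0.0197, Ifih1 (MDA5) from 0.00918 to 0.0136 and the RNA editor Adar from 0.0334 to 0.0471, with control 1 highest in each.

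The PARP group lies in a row on chromosome 16 (35832960 to 35972691). Parp9 and Dtx3l, partners in a complex that modifies histones, had scores of 0.0247, 0.0191, 0.0184 and 0.0182 and of 0.0209, 0.0175, 0.0181 and 0.0159. Parp14 ranged from 0.0301 to 0.0358, and Parp12, on chromosome 6, was barely detected at 0.00012 to 0.00032. Only Parp9 had both cKO scores below both controls among these 4. Among the enzymes of nucleotides and RNA, Samhd1, which breaks down deoxynucleotides, ranged from 0.0709 to 0.0790. Rsad2 (viperin) and Cmpk2, neighbours on chromosome 12, reached at most 0.00131 and 0.00476.

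The remaining targets were mixed. Xaf1, a partner of the apoptosis inhibitor XIAP, had 0.0209, 0.0136, 0.0125 and 0.0112, below both controls in both cKO samples, with a log2 fold change of -0.50 (SE 0.207, with an adjusted p of 0.227 from limma). Rtp4 had 0.0133, 0.0070, 0.0121 and 0.0113. Ifi27l2a was abundant at 0.266, 0.154, 0.212 and 0.226, and here too control 1 and control 2 formed the extremes. Sp100, a nuclear body protein, stayed within 0.116 to 0.127, Ifi35 within 0.0343 to 0.0413 and the antibody receptor Trim21 within 0.00811 to 0.00999.

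The IRG GTPases gave no call (0 of 6 genes tested by limma, and 0 at an unadjusted p under 0.05). Irgm1, a regulator of the family, had scores of 0.0498, 0.0429, 0.0381 and 0.0423, and Ifi47 had 0.0403, 0.0320, 0.0286 and 0.0307. In each of these, neither cKO score reached a control score, with log2 fold changes of -0.20 (SE 0.109) and -0.27 (SE 0.129) and limma adjusted p of 0.328 and 0.277. The other regulators, Irgm2 (0.0109, 0.00855, 0.0106 and 0.00948) and Igtp (0.0181, 0.0133, 0.0165 and 0.0159), had both cKO scores between those of the controls.

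Tgtp1 and Tgtp2 are effectors of the family. Tgtp1 had 0.0108, 0.00595, 0.00847 and 0.00614, and Tgtp2 had 0.0130, 0.00729, 0.0100 and 0.00757. Their coding sequences of 1248 bases are 99.7% identical with 4 mismatched bases, and the ratio of the scores of Tgtp1 to Tgtp2 was 0.830, 0.816, 0.844 and 0.811, so reads of these copies may not be separable and they count as uncertain. Iigp1, an effector studied in parasite infection, was close to 0 in all 4 samples (0.00002 to 0.00013, about 1 to 8 reads). On NCBIM37 Irgm1, Tgtp1, Tgtp2 and Ifi47 lie between 48675470 and 48910476 of chromosome 11, and Igtp and Irgm2 between 58013058 and 58036282 of the same chromosome.

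The transcription factors were the class least below control, with a median log2 fold change of 0.07 (5 of 7 above 0) against -0.13 for the type I targets and -0.15 for the IRG GTPases. These differences between classes were not tested, and their order depended on the controls used. Without control 1 the medians were 0.171 for the transcription factors, 0.056 for the type I targets and 0.242 for the IRG GTPases. None of the 7 was called (0 by limma, 0 at an unadjusted p under 0.05). Irf8, which shapes B cell and myeloid identity, was the highest, at 0.228, 0.224, 0.246 and 0.258. Irf5, which acts below Toll-like receptors, had 0.0900, 0.105, 0.112 and 0.113, and Stat2 had 0.0367, 0.0326, 0.0387 and 0.0371. In these 3 genes both cKO scores were above both control scores, with log2 fold changes of 0.16, 0.21 and 0.13 and limma adjusted p of 0.283, 0.274 and 0.448.

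Irf7, the factor that amplifies interferon production and is itself a target, had 0.0201, 0.0124, 0.0152 and 0.0157. Irf9 had 0.0372, 0.0281, 0.0341 and 0.0319, and Irf1, a target of interferon γ and of NF-κB, had 0.0327, 0.0248, 0.0275 and 0.0252. In these factors, which are targets of the pathway themselves, the cKO scores lay between the controls. Irf2, a repressor at the same elements, stayed between 0.0383 and 0.0426.

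**Figure D3:**
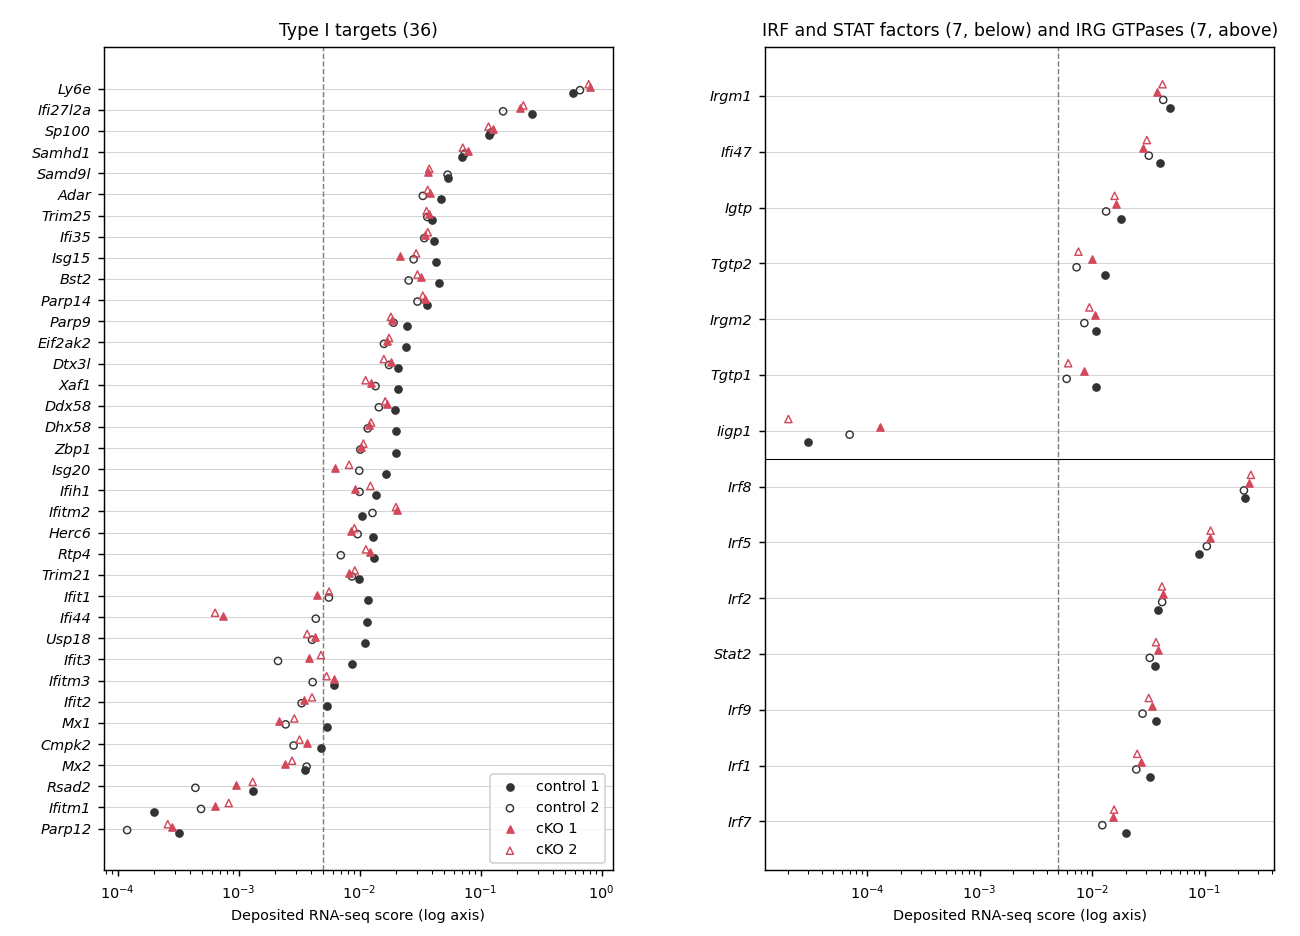
Deposited RNA-seq score (log axis) of all 50 members in control 1, control 2, cKO 1 and cKO 2, for the 36 type I targets on the left and the 14 IRG GTPases and transcription factors on the right. The dashed line marks the minimum score of 0.005. Control 1 is the rightmost point for most genes, Ifi44 is the gene whose cKO samples lie far to the left, and Ifitm2 shows both cKO samples to the right of both controls.

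The groups of all 4 samples can be set side by side without a fold change. In 8 of the 44 members (Ifi44, Samd9l, Isg20, Xaf1, Herc6, Parp9, Ifi47 and Irgm1) the cKO scores were the 2 lowest, against 30.1% of all genes tested, and in 5 they were the 2 highest (Ifitm2, Ly6e, Irf5, Irf8 and Stat2), against 28.1%. For the other 31 members the groups overlapped. For 20 members both cKO scores lay between the 2 control scores, against 10.6% of all genes. The 20 include both Tgtp1 and Tgtp2, whose reads may not be separable. No p belongs to these counts, since with 2 samples a group the smallest two-sided p of an exact permutation test is 0.33.

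The median difference of the members was larger between the controls than between the genotypes. Control 1 was above control 2 for 37 of the 44 members, against 48.1% of all genes tested, and by over 1.5-fold on the log2(score + 0.0001) scale for 18, against 2.13%. Of the 18, Ifit2, Ifit3, Mx1, Usp18 and Ifi44 reached the minimum score in control 1 alone, so these 5 entered the count through a high control 1. Tgtp1 and Tgtp2, whose reads may not be separable, are both counted in the 37 and in the 18. The 18 are 40.9% of the members tested and 8.70% of the 207 genes with such a gap. The median log2 difference of control 1 over control 2 was 0.44 for the members and -0.01 for all genes, and that of cKO 1 over cKO 2 was 0.03 for the members and -0.01 for all genes. It was 1.05 for the IFIT genes, 0.58 for the type I targets as a whole, 0.39 for the IRG GTPases and 0.17 for the transcription factors. The exceptions, at or below control 2 in control 1, were Samd9l, Ifitm2, Ly6e, Samhd1, Sp100, Irf2 and Irf5. This comparison was chosen after the scores had been seen, and it compares 2 libraries, not conditions.

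The direction of the members as a group followed the control it was set against. The median log2 fold change was -0.32 against control 1 and 0.09 against control 2, with 36 and 14 of 44 members below that control. Ifit2, Ifit3, Mx1, Usp18 and Ifi44 reached the minimum score in control 1 alone, so the filter favoured their place below control 1. The same limit holds for Ifi44, Usp18 and Ifit3 in the fit without control 2, where control 1 is the only control. By limma, 12 members were called lower and 2 higher without control 2, and 0 lower (3 at an unadjusted p under 0.05) and 2 higher without control 1, which were Ifitm2 and Rtp4. Over all 9727 genes the same fits called 391 lower and 439 higher without control 2, and 161 lower and 136 higher without control 1. The 12 were Ifi44, Usp18, Ifit1, Isg20, Ifit3, Zbp1, Xaf1, Isg15, Dhx58, Bst2, Samd9l and Eif2ak2. Without cKO 1 or without cKO 2 no gene of the 9727 was called (0 by limma), so the 0 members called there say nothing of the members (before adjustment, 2 lower and 2 higher members had a limma p under 0.05 without cKO 1, and 4 and 2 without cKO 2). The lone sample in such a fit is assumed to vary like the other samples. Among members with a promoter window and a sufficient score, the median control gap was 0.45 for the 17 with an ISRE match and 0.37 for the 18 without. Usp18, Mx1, Zbp1, Rtp4, Ifi27l2a and Dhx58, with gaps from 0.76 to 1.44, had no window and are in neither median. The same holds for Parp9, Parp14 and Ly6e, with gaps from -0.20 to 0.37. A relation of the gap to ISRE matches was not tested.

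**Figure D4:**
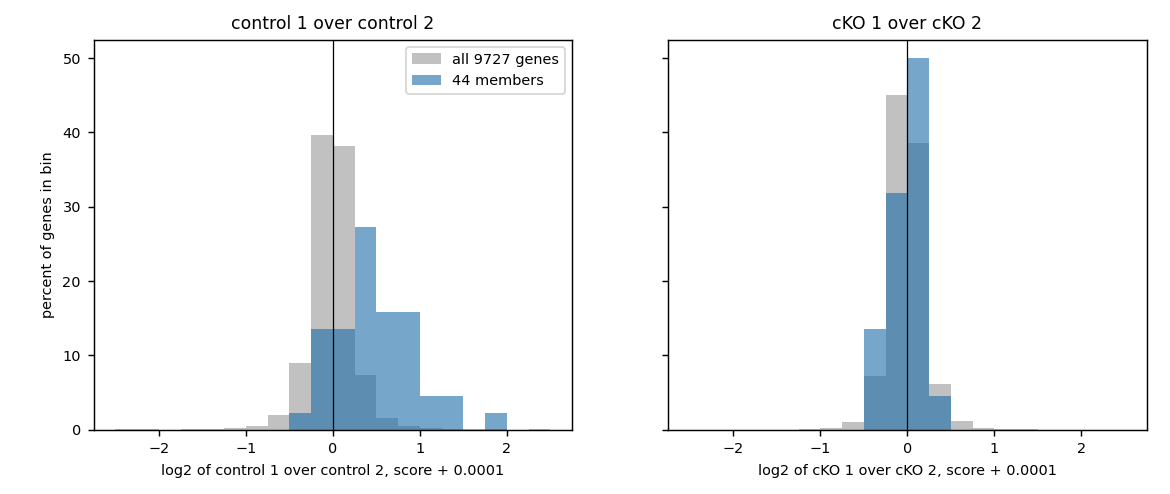
Distribution of the log2 difference between the 2 control samples (left) and between the 2 cKO samples (right), as percent of genes per bin of log2(score + 0.0001), for the 44 members and for all 9727 genes tested. The members are displaced towards control 1 in the left panel, with a median of 0.44, and centred near 0 in the right panel, with a median of 0.03.

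Other transcripts also differed between the controls. The summed score of 6 erythroid markers was 0.0134 in control 1 and 0.00263 in control 2. Hbb-b1 (0.00657 and 0.00113) and Hbb-b2 (0.00638 and 0.00116) made up most of it. Hba-a2 (0.00011 in each) and Alas2 (0.0002 and 0.00023) differed little between the controls. Of the 6, the 2 Hbb genes had both cKO scores below both controls, and 3 had both above, at scores below the minimum. The sums of 6 plasma cell markers were 0.314 and 0.253, and those of 12 myeloid markers 0.234 and 0.212. Of the plasma cell markers, 2 had both cKO scores below both controls and 2 above, against 30.1% and 28.1% of all genes tested. Prdm1, the factor that drives plasma cell formation, had 0.00835, 0.00458, 0.00083 and 0.00075. It was called lower in cKO samples (limma adjusted p = 0.0429), but it reached the minimum score in control 1 alone. The filter therefore favoured its place below control. Igj, the chain that joins secreted antibody, had 0.134, 0.0783, 0.0552 and 0.0572. Sdc1 (CD138), the surface marker of plasma cells, had 0.00398, 0.00418, 0.00814 and 0.00604, and reached the minimum score in cKO samples alone. Irf4 had 0.0609, 0.0621, 0.0712 and 0.0654. Neither Sdc1 nor Irf4 was called. In the cKO samples the same sums were 0.00254 and 0.00218 for erythroid, 0.273 and 0.224 for plasma cell and 0.243 and 0.253 for myeloid markers. The 12 T and NK cell markers summed to 0.00406, 0.00379, 0.0060 and 0.00496, and the 5 markers of plasmacytoid dendritic cells, which are strong producers of interferon, to 0.00933, 0.0156, 0.0243 and 0.0212. Both cKO scores were above both control scores for 5 of the 12 myeloid, 4 of the 12 T and NK cell and 3 of the 5 plasmacytoid dendritic cell markers, and below both for 1, 2 and 0. Among all genes tested, 28.1% were above both and 30.1% below both. Without the minimum score, which many of these markers did not reach, it was 4984 and 4696 of 30041 genes. Among those above were Lyz2 (0.0205, 0.0112, 0.0485 and 0.0329), Pacsin1 (0.0052, 0.00971, 0.0165 and 0.0143) and Nkg7 (0.00041, 0.00033, 0.00175 and 0.00124). Those below were Fcgr3 (0.0148, 0.0125, 0.00867 and 0.00672), Cd28 and Prf1. Limma called no marker of these 3 lists (0 lower, 0 higher). Of them, 5 genes had an unadjusted limma p under 0.05, with Lyz1, Lyz2, Ccr9 and Pacsin1 higher in cKO samples and Fcgr3 lower. Lyz1 reached the minimum score in cKO samples alone. The T and NK cell markers were all below the minimum score for testing. S100a9, Gzma, Cox6a2 and Klk1 were at 0 in all samples, and Siglech reached at most 0.00022. The part of other cells in the members' scores was not tested, and in bulk RNA fewer cells of a type cannot be told apart from less RNA per cell.

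Genes that make and sense interferon were read beside the members. Of 30 genes of the pathway listed beside the members, 29 were found by symbol and 20 reached the minimum score, of which 0 were called lower and 0 higher by limma (3 had an unadjusted p under 0.05: Jak2, Tlr7 and Ifngr2). The shares called over all genes were 1.25% and 0.812%. In 10 of the 20 both cKO scores were above both control scores (28.1% of all genes) and in 2 below both (30.1%), and 16 of the 20 log2 fold changes were above 0, with a median of 0.07. The interferon genes Ifnb1, Ifna2 and Ifna4 were listed at 0 in all 4 samples, and Ifng and Ifna1 reached 0.00005 and 0.0001 in a single control sample each.

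The receptor genes ranged little. Ifnar1 ranged from 0.0270 to 0.0287, Ifnar2 from 0.0148 to 0.0167 and Ifngr1 from 0.0213 to 0.0243. Ifngr2 had 0.0356, 0.0349, 0.0315 and 0.0294, a log2 fold change of -0.21 (SE 0.0847, with an adjusted p of 0.223 from limma). Among the kinases, Jak1 ranged from 0.0893 to 0.104 and Tyk2 from 0.0172 to 0.0225. Jak2, the kinase of the interferon γ receptor and of cytokine receptors, had 0.0143, 0.0193, 0.0297 and 0.0247, with both cKO samples above both controls and a log2 fold change of 0.70 (SE 0.168, with an adjusted p of 0.106 from limma).

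Among the 20 pathway genes control 1 was above control 2 in 6, with a median log2 difference of -0.04, while 37 of the 44 members had the higher score in control 1.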

How the data were processed

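RNA-seq was analysed in 4 samples of LPS-stimulated splenic B cells, 2 control and 2 cKO, grouped by their labels. The authors mapped 38-base reads to mm9 with TopHat and removed low-quality, rRNA and tRNA reads. They deposited 1 score for each gene in every sample, with 5 decimals, and the step from reads to score is not given in the sources used here. CASAVA, Bowtie, SAMtools and bedtools are also named in the submitters' processing notes.

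The deposited scores were used without rescaling. Genes that reached a score of 0.005 in any sample were tested with limma 3.58.1 (R 4.3.3, eBayes with a variance trend) after log2(score + 0.0001), p-values being adjusted by Benjamini-Hochberg over 9727 genes and a threshold of 0.05. A fold change on this scale understates that of low genes. Tables were made with Python 3.11.15, pandas 2.3.3 and numpy 2.4.6. In 20 simulated data sets of 9727 genes, 96.5% of genes changed 2-fold and 99.8% of those changed 4-fold were called, and 8.23% of calls were false, more than the nominal share. Noise was drawn independently for each gene and sample from the variances that limma had fitted. A gap shared by many genes of a sample, as between the controls here, was therefore absent. These rates do not say how often a changed member would be called. Depth was inferred from the spacing of score times exon length in genes with 1 transcript. In each sample 75.4 to 81.9% of such low scores lay within 0.2 of a whole step. The depth so inferred was about 1.78e+07 reads in control 1, 1.83e+07 in control 2, 1.99e+07 in cKO 1 and 1.75e+07 in cKO 2. Larger multiples and whole fractions of these steps were not searched, so the read numbers could be too high or too low. Reads per gene cover counting error only.

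The members and lists were chosen with earlier results of these data known. All 50 members are named. A fold change is given for those with an adjusted p under 0.05 or a ratio of geometric means below 0.67 or above 1.5, and for others whose groups do not overlap or that are compared within a class, which were picked after their values were seen. Positions of genes are from GENCODE on NCBIM37 (mm9), and promoter windows are from RefSeq (GRCm38.p6), 2 builds that were not mixed. The alternatives were other filters, pseudocounts, scalings, blocks and leaving out each sample.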

Additional observations from a re-analysis of the deposited data

How the results depend on the processing

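Same-numbered samples did not deviate together (Pearson -0.145, Spearman -0.291 across 9727 genes, which are not independent). With 2 samples per group this is a single correlation between the control difference and the cKO difference. It cannot tell whether the numbers pair the samples. With the replicate block 1 member was called lower (Ifi44, limma adjusted p = 0.0156, in place of Samd9l, 0.0659) and 1 higher. With the crossed replicate block, chosen after seeing the data, 2 were lower and 1 higher.

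The count of members called was 1 lower and 1 higher. With no filter it was 0 and 0 (3 and 2 at an unadjusted p under 0.05), where none of all 21582 genes was called, and without the variance trend 0 and 0 (again 3 and 2), where 22 genes in all were lower and 11 higher. It was 0 and 1 with quantile normalization, and with a score above 0.05, which left 7 members, 1 and 0. With each sample left out the counts were 0 to 12 lower and 0 to 2 higher. Members outside 2-fold, 1 by the geometric means, numbered 2 with no filter, 0 with a score above 0.05 and 1 to 6 with a sample left out. The median log2 fold change of the members, -0.111, was 0.112 with a score above 0.05 and ranged from -0.320 to 0.088 with a sample left out. For the type I targets it was 0.051 and ranged from -0.430 to 0.056, and for the IRG GTPases it ranged from -0.375 to 0.242. The log2 fold change of Nfkbiz was -0.941 with no filter (limma adjusted p = 0.203) and without the trend (0.0509), and ranged from -1.008 to -0.874 with a sample left out. The cause was not tested for these changes, except that fewer members remain above a score of 0.05.

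Of the named members, Samd9l kept its direction with every alternative run. It passed the threshold with a score above 0.05, a pseudocount of 0.001, equal medians, the crossed block and without control 2, and missed it with the others, at a limma adjusted p of 0.0514 with quantile normalization, 0.0798 without the trend and 0.203 with no filter. Ifitm2 kept its direction wherever it was tested, between 0.657 and 0.932 with a sample left out, and missed the threshold with no filter (0.217), without the trend (0.0742) and without either cKO sample. With 2 samples per group and an inferred depth, the low scores are the least certain.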
